A study of Mus musculus with 2 samples.

Results

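Genes of the hyperpolarisation-activated current were followed in mouse hippocampus: the channel genes Hcn2, Hcn3 and Hcn4, and Pex5l, which encodes the auxiliary subunit TRIP8b. They were chosen by gene symbol, and all 4 were found among the 55536 annotated genes. The hippocampi were taken from adult female mice of the strain B6CASTF1/J, an F1 hybrid between C57BL/6J and CAST/EiJ, at an age of 8 to 10 months. Total RNA was sequenced with reduced ribosomal RNA, 1 library per animal from 300 ng of RNA. Replicate 1 is animal 1 and replicate 2 is animal 5. They carry different animal numbers but 1 shared donor identifier in the labels, and were taken as 2 animals. The tissue term names a layer of the hippocampus without saying which. Both animals share strain, sex and age range and form 1 group, so the values below are levels in this tissue, the make-up of each gene by transcript, and the spread between 2 animals, with no comparison between conditions.

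HCN channels open when the membrane becomes more negative and carry an inward cation current, Ih, which sets the resting potential, the integration of synaptic inputs and rhythmic firing of neurons and heart pacemaker cells. Each subunit has a cyclic nucleotide-binding domain in its cytoplasmic C-terminal part, and binding of cyclic AMP eases opening to a degree that differs between subunits. TRIP8b, a relative of the peroxisomal import receptor Pex5, binds the C-terminal tripeptide of HCN subunits with its tetratricopeptide repeats and also contacts the cyclic nucleotide-binding domain. Its splice forms differ at the N-terminus, and some raise while others lower the number of HCN channels at the cell surface.

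The sequences on which the Pex5l results turn are the coding stretches by which its transcripts differ near the 5′ end, all on the minus strand of chromosome 3 (mm10, from GENCODE M21 transcripts). The exon with the distal start codon has its coding part at chr3:33142849-33142869, and that with the proximal one at chr3:33081976-33082068. Cassette exons of 72 and 105 bases follow at chr3:33080465-33080536 and chr3:33024696-33024800. Further downstream an exon begins either with or without 3 extra bases, shown with the sequence that follows at chr3:33006017-33006046. Capitals mark start codons in the first pair of sequences and the 3 extra bases in the last. The proximal stretch holds a second ATG, the annotated start of the transcript Pex5l-204.
distal start: ATGtaccagggacacatgcag
proximal start: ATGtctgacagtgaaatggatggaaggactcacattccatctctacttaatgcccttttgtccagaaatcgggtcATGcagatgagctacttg
72-base exon: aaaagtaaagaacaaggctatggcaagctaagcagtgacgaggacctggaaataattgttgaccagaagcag
105-base exon: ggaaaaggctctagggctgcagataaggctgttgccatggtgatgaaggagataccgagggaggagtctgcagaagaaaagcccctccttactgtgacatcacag
exon with extra bases: TAGacattcaaacacaactggaaaaatggg

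The lengths of these coding stretches, 21, 93, 72, 105 and 3 bases, are all multiples of 3, so each choice changes part of the encoded protein and leaves the downstream frame in place. The transcript from the distal start, Pex5l-206, skips both cassette exons and has 1701 coding bases. Pex5l-205, from the proximal start with the 72-base exon, has 1845, and Pex5l-209, which also holds the 105-base exon, has 1950. Pex5l-204 starts at the second ATG, holds the 3 extra bases and has 1773 coding bases.

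**Figure D1:**
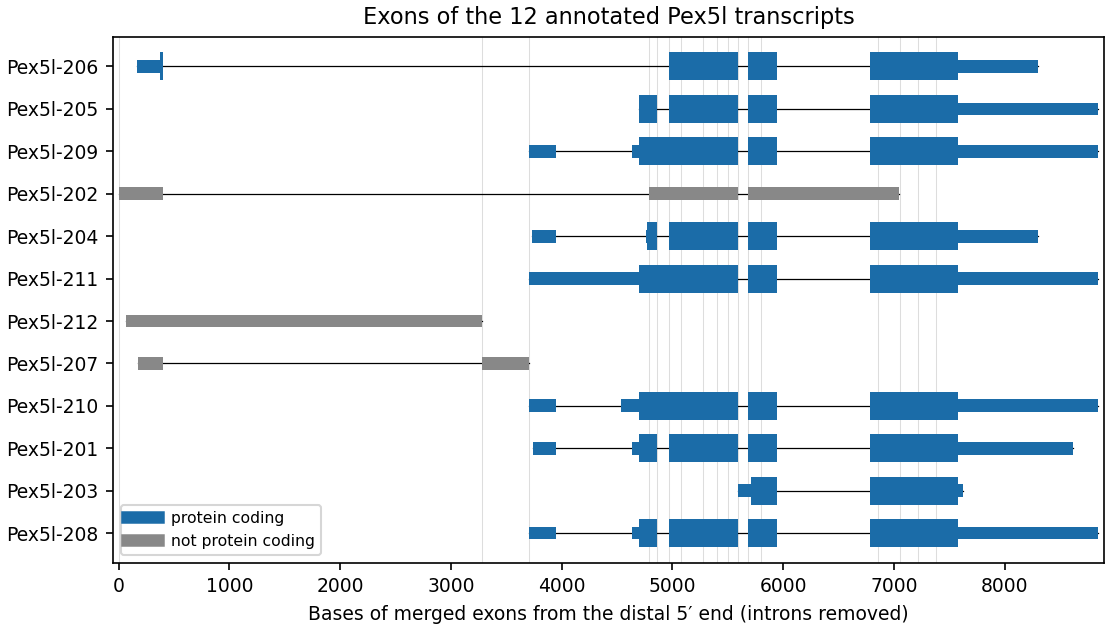
Exons of the 12 annotated Pex5l transcripts, drawn to scale along merged exon sequence from the distal 5′ end with introns removed; tall boxes are coding, low boxes untranslated or non-coding, and grey vertical lines mark where each merged exon begins. The 4 transcripts with a distal first exon are Pex5l-202, Pex5l-206, Pex5l-207 and Pex5l-212, and Pex5l-206 is the only one of them annotated as protein coding.

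For the channels, the coding ends are shown because TRIP8b binds there. The last 30 coding bases, stop codon included, are given for Hcn2 (chr10:79735511-79735540, plus strand), Hcn3 (chr3:89147599-89147628, minus strand) and Hcn4 (chr9:58860734-58860763, plus strand), with the last 3 codons before the stop codon in capitals.
Hcn2 end: gcgcgctcgcgcctctctTCCAACTTGtga
Hcn3 end: agaggtccccaaatttctGCCAACATGtga
Hcn4 end: gtacgctccaaactgccgTCTAATTTAtga
Of the 9 bases in capitals, Hcn2 shared 7 with Hcn3 and 6 with Hcn4, and Hcn3 shared 4 with Hcn4. These counts are of bases and do not rank the encoded tripeptides. The codons encode Ser-Asn-Leu in both Hcn2 and Hcn4, and Ala-Asn-Met in Hcn3. Over the whole coding sequence, aligned globally, Hcn2 and Hcn4 were identical at 76.9% of 2578 aligned bases, Hcn2 and Hcn3 at 74.4% of 2241, and Hcn3 and Hcn4 at 73.7% of 2317. The coding sequences, stop codon included, measured 2592 bases in Hcn2, 2340 in Hcn3 and 3606 in Hcn4, with a GC content of 63.8%, 61.1% and 62.2%. At the gene level the deposited posterior SD of the count, a measure of the error in assigning reads, was 0 for all 4 genes in both libraries.

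Depth was 34147398 expected counts, which are reads shared out among matching genes, on annotated genes in replicate 1 and 28356895 in replicate 2. The tissue label was checked with marker lists. Markers of pyramidal and granule neurons (7 of 7), inhibitory neurons (5 of 5), oligodendrocytes (5 of 5), astrocytes (4 of 4) and microglia (3 of 3) all reached 1 TPM in both animals, where TPM is the number of transcripts of a gene scaled to a fixed library total after correction for length. Of 6 genes chosen as thalamic markers, 5 did so, with a summed level of 39.6 TPM in replicate 1 and 45.8 TPM in replicate 2. The choroid plexus markers Ttr, Aqp1, Clic6, Kcnj13 and Sostdc1 summed to 24.8 TPM in replicate 1 and 632 TPM in replicate 2. Ttr alone held 21.8 TPM of this in replicate 1 and 615 in replicate 2. The other 4 summed to 3.01 TPM in replicate 1 and 16.8 TPM in replicate 2. In tissue RNA, fewer cells of a type and less RNA per cell cannot be told apart.

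Pex5l had the highest level of the 4 genes, with 148 TPM in replicate 1 and 151 TPM in replicate 2. Its mean of 149.7 ± 2.4 TPM (SD, n = 2) ranked 557th of 22015 nuclear protein-coding genes, and its gene (ENSMUSG00000027674.16, chr3:32949408-33143247, minus strand) spans 193.8 kb. The gap between the animals was small beside the level itself.

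Hcn2, the channel subunit whose gating is strongly sensitive to cyclic AMP, led the 3 channel genes. It had 58.9 TPM in replicate 1 and 69.8 TPM in replicate 2, with a mean of 64.4 ± 7.7 TPM (SD, n = 2), which ranked 1774th (ENSMUSG00000020331.9, chr10:79716634-79736108, plus strand). Replicate 2 was the higher of the 2. Hcn2 rested on 3846 and 3805 expected counts in replicates 1 and 2.

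Hcn3, a subunit that responds little to cyclic AMP, had 6.92 TPM in replicate 1 and 6.25 TPM in replicate 2, a mean of 6.59 ± 0.47 TPM (SD, n = 2). It ranked 9949th and rested on 327 and 310 expected counts (ENSMUSG00000028051.10, chr3:89146074-89160196, minus strand). Replicate 1 was slightly the higher in TPM.

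Hcn4, the main subunit of the heart pacemaker, was the lowest, with 0.80 TPM in replicate 1 and 0.98 TPM in replicate 2. Its mean of 0.890 ± 0.13 TPM (SD, n = 2) lay under 1 TPM in both animals and ranked 13472nd (ENSMUSG00000032338.9, chr9:58823412-58863175, plus strand). It was nevertheless counted in both, at 101 and 104 expected counts on a transcript of 6118 bases.

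The order Pex5l, Hcn2, Hcn3, Hcn4 held in both animals, and in all 6 pairs the gap in mean TPM exceeded the SD of both genes. No neighbours in this order overlapped. Pex5l was 2.51 times the level of Hcn2 in replicate 1 and 2.17 times in replicate 2. Hcn2 was 8.52 times the level of Hcn3 in replicate 1 and 11.2 times in replicate 2. Hcn3 was 8.65 times the level of Hcn4 in replicate 1 and 6.38 times in replicate 2. Of the summed TPM of the 3 channel genes, Hcn2 held 89.5 ± 1.6%, Hcn3 9.25 ± 1.6% and Hcn4 1.24 ± 0.051% (SD, n = 2). Pex5l stood at 2.09 ± 0.18 times that sum.

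**Figure D2:**
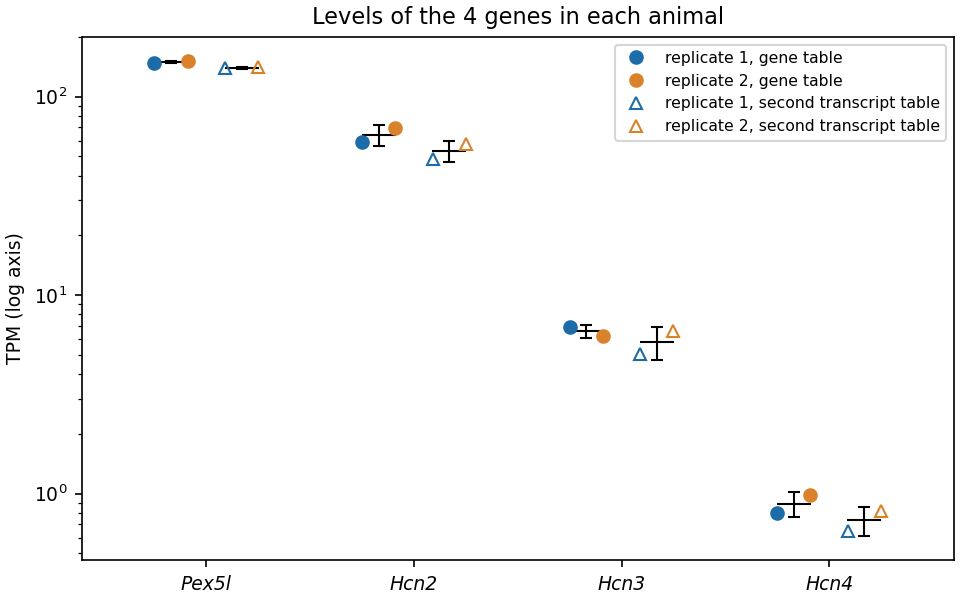
Level of each gene in TPM on a log axis, with filled circles for the gene table and open triangles for the second transcript table, blue for replicate 1 and orange for replicate 2; bars are the mean ± SD of 2 animals. The 4 genes are separated by more than their spread in both tables, from Pex5l near 150 TPM in the gene table (149.7) to Hcn4 at 0.890 TPM.

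A second quantification, deposited per transcript and made from 1 read file of each library, gave lower levels in the same order. Pex5l was at 139.7 ± 1.5 TPM, Hcn2 at 53.3 ± 6.4 TPM, Hcn3 at 5.82 ± 1.1 TPM and Hcn4 at 0.733 ± 0.12 TPM (SD, n = 2). All 6 pairs stood apart there too. For Hcn3 the animals changed places, having 5.04 TPM in replicate 1 and 6.59 TPM in replicate 2. Both quantifications come from the same libraries and are not independent.

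By transcript, Hcn2 and Hcn4 were simple. Hcn4 has a single annotated transcript, Hcn4-201. Of the annotated Hcn2 transcripts, Hcn2-202, of 3195 bases in 8 exons, took all counts in both animals in both tables. Hcn2-201, of 3089 bases, splits the last exon into a pair and has the same 2589 coding bases without the stop codon. It was listed at 0 counts throughout, and the posterior SD of the assignment was 13.5 counts in replicate 1 and 14.7 in replicate 2.

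Hcn3 was mixed. The full-length coding transcript Hcn3-201, of 4002 bases, had 3.41 TPM in replicate 1 and 4.21 TPM in replicate 2. The retained-intron transcripts Hcn3-202 and Hcn3-203, of 533 and 909 bases, had 0.66 and 1.54 TPM in replicate 1, and 1.29 and 0.75 TPM in replicate 2. The processed transcript Hcn3-204, of 627 bases, had 1.31 TPM in replicate 1 and was listed at 0 in replicate 2. In this table the coding transcript was higher in replicate 2, while the 3 short transcripts together were higher in replicate 1, with 3.51 TPM there and 2.04 TPM in replicate 2.

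These short transcripts carried few reads. In expected counts, Hcn3-201 held 280.19 of 327 in replicate 1 and 289.44 of 310 in replicate 2, or 89.5 ± 5.4% (SD, n = 2), against 58.3 ± 12.8% of TPM. The 3 short transcripts held 46.81 counts in replicate 1 and 20.56 in replicate 2. Their posterior SDs were 5.38 (Hcn3-202), 9.61 (Hcn3-203) and 5.55 (Hcn3-204) counts in replicate 1. In the first table the difference in Hcn3 TPM between the animals thus had the opposite sign to that of Hcn3-201. This did not hold in the second table, where the short transcripts together had 2.14 TPM in replicate 1 and 3.10 TPM in replicate 2. There Hcn3-201, with 2.90 TPM in replicate 1 and 3.49 TPM in replicate 2, and the gene as a whole were higher in replicate 2 too, and Hcn3-201 held 55.2 ± 3.2% of TPM.

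**Figure D3:**
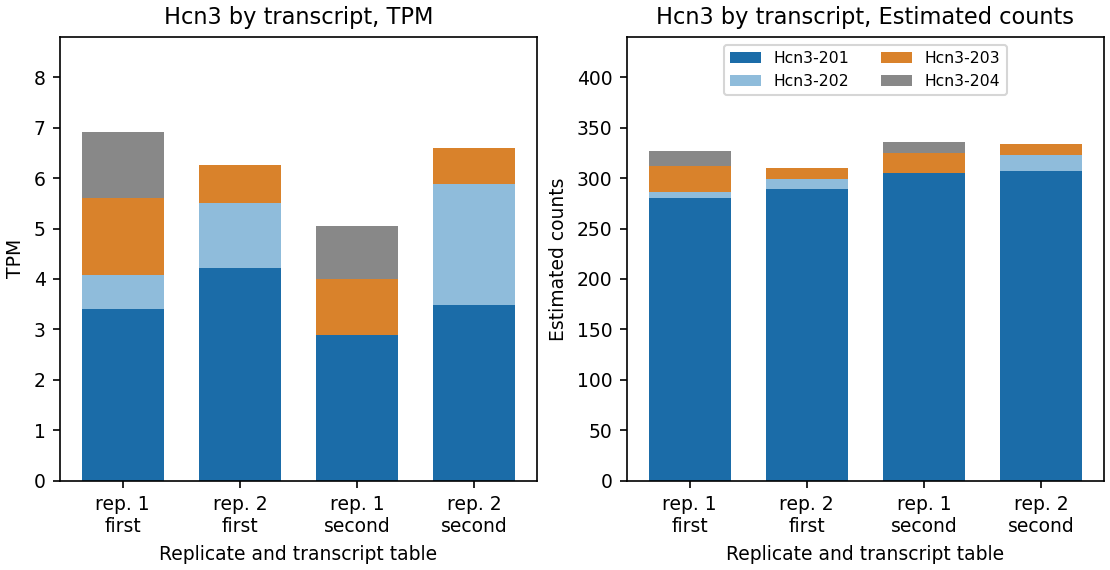
Hcn3 in each replicate and transcript table, stacked by its 4 transcripts, in TPM (left) and estimated counts (right). Hcn3-201 holds most counts in all 4 bars, 89.5% on average in the first table, but 58.3% of TPM there.

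Pex5l was made up of several transcripts from both starts. Transcripts beginning at the distal first exon held 50.4% of Pex5l TPM in replicate 1 and 54.5% in replicate 2, a mean of 52.4 ± 2.9% (SD, n = 2). Those beginning at the proximal first exons held 49.6% in replicate 1 and 45.5% in replicate 2. Transcripts annotated as protein coding held 81.8 ± 0.039%, and the 3 others, all from the distal exon, 18.2 ± 0.039%.

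The distal coding transcript Pex5l-206 was the largest and had 47.7 TPM in replicate 1 and 54.9 TPM in replicate 2, or 34.2 ± 2.9% of the gene (SD, n = 2). Pex5l-205, from the proximal start without the 105-base exon, had 36.8 TPM in replicate 1 and 25.4 TPM in replicate 2, or 24.9% and 16.8% of the gene. Pex5l-209, which adds the 105-base exon, had 18.4 TPM in replicate 1 and 25.5 TPM in replicate 2, or 12.5% and 16.8%. So Pex5l-205 was the higher of this pair in replicate 1, and the pair stood level in replicate 2.

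Pex5l-205 rested on 2333.86 expected counts with a posterior SD of 188.47 in replicate 1, and on 1346.07 with 150.67 in replicate 2. Pex5l-209 rested on 1330.44 with a posterior SD of 233.61 in replicate 1, and on 1537.58 with 164.55 in replicate 2. Assignment between these transcripts therefore carried an error that the gene total did not. Among coding transcripts of the proximal start, those with the 105-base exon held 34.9% of TPM in replicate 1 and 49.9% in replicate 2. In the second table the values were 31.5% in replicate 1 and 42.1% in replicate 2, the same direction from the same reads. With 2 animals this difference has no replicate check.

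Among the smaller transcripts, Pex5l-204 with the 3 extra bases held 7.44% of TPM in replicate 1 and 6.01% in replicate 2. Pex5l-211, a coding transcript with a long first exon that reads through from the proximal first exon to the start codon, had 7.21 TPM in replicate 1 and 8.21 TPM in replicate 2. The retained-intron transcript Pex5l-202, which joins the distal first exon to the downstream exons, had 14.8 TPM in replicate 1 and 13.7 TPM in replicate 2. Pex5l-212, a single exon running from the distal first exon into the intron behind it, had 7.23 TPM in replicate 1 and 7.98 TPM in replicate 2. Pex5l-204 and Pex5l-202 were thus higher in replicate 1, and Pex5l-211 and Pex5l-212 in replicate 2. Pex5l-204 rested on 608.3 expected counts with a posterior SD of 89.93 in replicate 1, and on 419.93 with 81.47 in replicate 2.

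The tables disagreed most on Pex5l-206 and Pex5l-203. In the second table Pex5l-206 had 27.6 TPM in replicate 1 and 32.6 TPM in replicate 2, a share of 21.5 ± 2.3% (SD, n = 2). Pex5l-205 was above it in replicate 1 at 33.9 TPM and below it in replicate 2 at 27.8 TPM. Pex5l-203, a transcript of 1187 bases that begins far downstream and has 1032 coding bases, was listed at 0 in the first table and had 14.7 TPM in replicate 1 and 14.5 TPM in replicate 2 in the second. All distal transcripts together held 39.6 ± 2.0% of TPM there. The leading Pex5l transcript thus depended on the table, whereas the non-coding share, at 18.1 ± 0.23% in the second table, moved little.

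**Figure D4:**
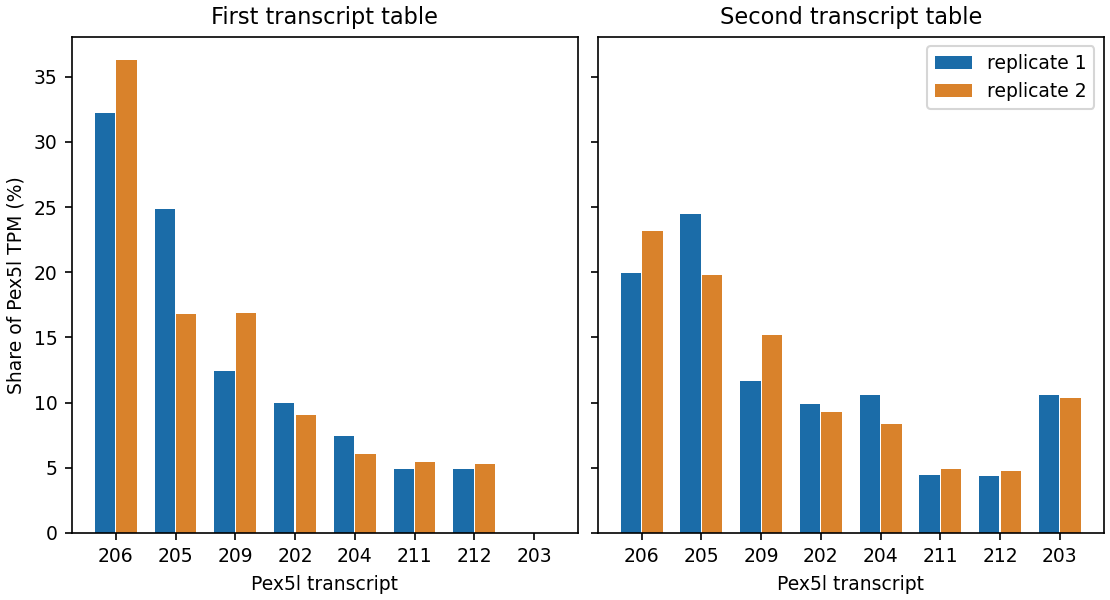
Share of Pex5l TPM held by each of the 8 transcripts with a mean of at least 5% in either transcript table, in replicate 1 (blue) and replicate 2 (orange). Pex5l-206 leads in both animals in the first table (32.2% and 36.3%), but Pex5l-205 leads in replicate 1 in the second.

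Several annotated genes overlap the members, and no note or header at hand says if counting used strand. The antisense gene 4930419G24Rik, opposite the proximal start of Pex5l, had 0 counts in both animals, and the antisense gene Gm37459 had 2 counts in replicate 1 and 1 in replicate 2. Within Pex5l introns on its own strand, Gm37443 had 104 and 110 counts in replicates 1 and 2, and Gm19445 had 142 and 144. Pklr, whose 3′ end overlaps that of Hcn3 by 711 bases on the opposite strand, had 2 counts in replicate 1 and 0 in replicate 2. The part of unspliced Pex5l RNA in the intronic entries was not tested.

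Between the animals, none of the 4 genes differed at least 2-fold. Across the 14434 genes with a mean count of at least 50, 159 or 1.10% did, by a criterion of a 2-fold ratio after TMM scaling for library size and composition and a 95% counting interval that excluded a ratio of 1. As replicate 1 over replicate 2, the log2 ratio was -0.03 for Pex5l (interval -0.08 to 0.01), -0.24 for Hcn2 (-0.31 to -0.18), -0.18 for Hcn3 (-0.41 to 0.05) and -0.30 for Hcn4 (-0.71 to 0.11). The median over all genes tested was 0.02. The interval of Hcn2 excluded a ratio of 1, as it did for 44.3% of all genes tested, and 18.7% were lower in replicate 1 in this way. Under spike-in scaling the interval excluded 1 for 69.8% of all genes tested, and their median log2 ratio was 0.26. The ratio of Hcn2 was then -0.00015 and those of Pex5l, Hcn3 and Hcn4 were 0.21, 0.061 and -0.057. Hcn2 was thus lower in replicate 1 under TMM scaling and level under spike-in scaling. Which scaling is nearer to the amounts in the tissue was not tested.

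Cell type markers had ratios of both signs. Of 7 pyramidal and granule neuron markers, 4 were higher and 3 lower in replicate 1, with a median log2 ratio of 0.055, from Wfs1 at -0.57, C1ql2 at -0.43 and Bok at -0.43 to Cpne4 at 0.17. Of 5 oligodendrocyte markers, 1 was higher and 4 lower in replicate 1, with a median of -0.12, from Mog at -0.61 and Mag at -0.48 to Mbp at 0.047. Of 5 inhibitory neuron markers, 4 were higher and 1 lower, with a median of 0.10. Of 4 astrocyte markers, 1 was higher and 3 lower, with a median of -0.08. Of 3 microglia markers, 1 was higher and 2 lower, with a median of -0.06. Of the 5 thalamic markers with a mean count of at least 50, 1 was higher and 4 lower, with a median of -0.19. All 5 choroid plexus markers were lower and past the 2-fold criterion, with a median of -3.255. Summed TPM was 382 in replicate 1 and 438 in replicate 2 for pyramidal and granule neuron markers, and 296 and 311 TPM in replicates 1 and 2 without Wfs1. It was 1414 in replicate 1 and 1452 in replicate 2 for oligodendrocyte markers, and 662 and 732 TPM without Mbp. For inhibitory neuron markers it was 502 in replicate 1 and 456 in replicate 2, and 300 and 279 TPM without Sst. The part of any of these cell types or tissues in the Hcn2 value was not tested.

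**Figure D5:**
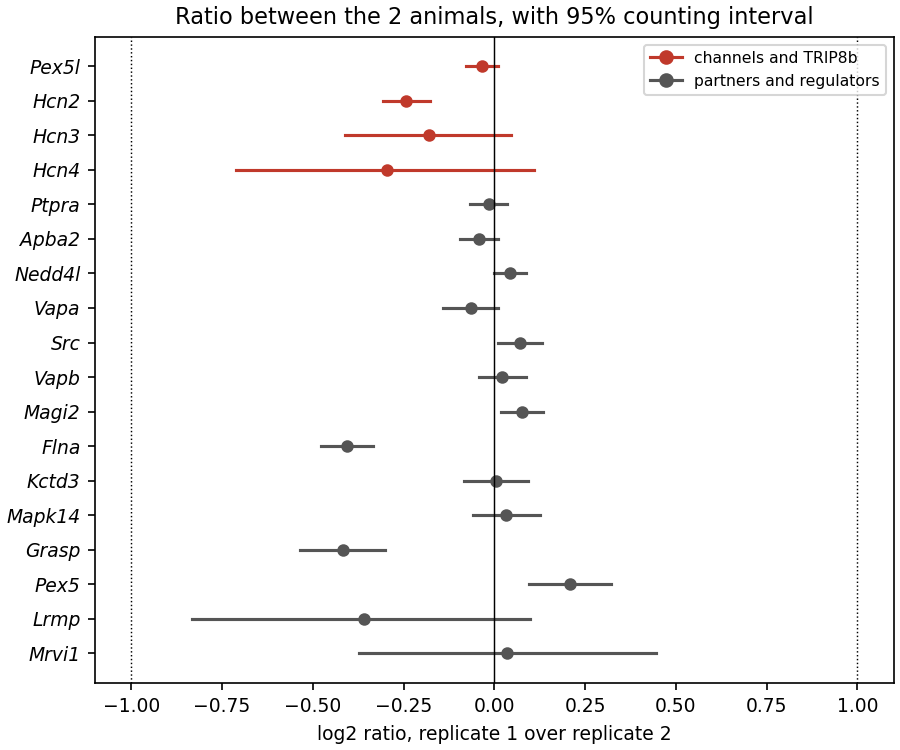
Log2 ratio of replicate 1 over replicate 2 for the 4 genes (red) and for the 14 partners and regulators with a mean count of at least 50 (grey), with lines for the 95% counting interval and dotted lines at a 2-fold ratio. All 18 points lie inside the dotted lines, and Hcn2 at -0.24 is the only one of the 4 whose interval under TMM scaling leaves out 0.

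Of all 22015 nuclear protein-coding genes, 13010 reached 1 TPM in both animals. Of 16 genes known as partners or regulators of HCN channels, 14 did so. The highest were Ptpra, a receptor tyrosine phosphatase, at 152.6 ± 2.2 TPM, Apba2, the adaptor Mint2, at 118 ± 0.30 TPM, and Nedd4l, a ubiquitin ligase, at 113 ± 0.90 TPM (SD, n = 2 each). Ptpra had 151 and 154 TPM in replicates 1 and 2, close to Pex5l. The kinase Src was at 67.2 ± 1.4 TPM, near Hcn2. Kctd3, a cytoplasmic protein that binds Hcn3, stood at 41.2 ± 2.9 TPM, well above Hcn3 itself. Pex5, the relative of Pex5l that imports peroxisomal proteins, stood at 27.2 ± 4.5 TPM.

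Regulators linked to Hcn4 were low, with Lrmp at 2.73 ± 0.59 TPM and Mrvi1 at 2.15 ± 0.049 TPM. Cav3, the caveolin of muscle, was the lowest of the list at 0.170 ± 0.014 TPM. Kcne2, an accessory subunit of several channels, had 0 counts in replicate 1 and 45 in replicate 2, where the choroid plexus markers were also high. The part of choroid plexus in the Kcne2 value was not tested. Between the animals, 0 of the 14 tested partners passed the 2-fold criterion, 8 being higher and 6 lower in replicate 1, with a median log2 ratio of 0.01 beside 0.02 for all genes tested. The intervals of Flna, an actin crosslinker, at -0.41, and Grasp, the scaffold tamalin, at -0.42, excluded a ratio of 1, as did those of Pex5 at 0.21, Magi2 at 0.08 and Src at 0.07. These 5 of 14 were no larger a share than the 44.3% of all genes tested.

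The cyclic nucleotide-gated channels, a related family best known from sensory cells, were at or near 0. None of 6 reached 1 TPM in both animals, and Cngb1 and Cnga4 were highest at 0.370 ± 0.099 and 0.370 ± 0.014 TPM. Cnga3 followed at 0.195 ± 0.049 TPM, and Cnga1 was listed at 0 counts in both libraries. Even Hcn4, the lowest of the HCN genes followed here, stood above each of them in both animals.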

How the data were processed

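The authors deposited, per library, a gene table, a transcript table of the same layout and a second transcript table, all on mm10 and annotated with GENCODE M21, as their notes say. The layouts are those of RSEM and kallisto, per the file headers. No aligner, version or strand setting is stated in the notes and headers at hand. Expected counts were deposited without normalisation, TPM after length normalisation by the authors, and the posterior SD of each count as a signal in counts that covers read assignment only. The deposited percent of a gene's TPM per transcript was recomputed and differed by at most 0.054. CAST/EiJ reads were quantified on a reference of C57BL/6J, which could lower counts of that allele.

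Levels are mean TPM ± SD of 2 animals. Genes were said to stand apart where the gap in means exceeded both SDs in both animals alike. For ratios, expected counts were rounded to whole numbers, with TMM in edgeR 4.0.16 (R 4.3.3), a prior count of 2 and exact Clopper-Pearson intervals of 95%, which cover counting error only. No p-value was computed. The ratio step was tested on simulated data. Sequences were aligned with Biopython 1.88. The 4 members and all lists were chosen with earlier results of these data known. Transcripts were named at 5% of the gene's TPM, and list genes as the 3 highest, the lowest and those past the 2-fold criterion, with further list genes named after their values were seen. Marker lists are given by counts and sums.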

Additional observations from a re-analysis of the deposited data

How the results depend on the processing

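No paired analysis was possible because the libraries form 1 group. The second transcript table moved the levels to 139.7 (Pex5l), 53.3 (Hcn2), 5.82 (Hcn3) and 0.733 TPM (Hcn4), and rescaling over nuclear protein-coding genes to 299.8, 129, 13.2 and 1.78 TPM. Posterior mean TPM moved Pex5l to 144.9. Spike-in scaling moved the log2 ratios of Pex5l, Hcn2 and Hcn3 to 0.21, -0.00015 and 0.061. The count of genes past the 2-fold criterion was 748 with a mean count of at least 10 and 1253 with no minimum, since more low-count genes then enter. The share of Pex5l-206 moved to 21.5% in the second table and 30.9% of counts, that of Hcn3-201 to 89.5% of counts, and the coding share of Pex5l to 81.9% in the second table. The distal start and the 105-base exon were groupings chosen after seeing the data. The distal share moved to 39.6% in the second table and 45.6% of counts. Transcripts with the 105-base exon, the non-coding Pex5l-202 included, held 29.5% of all Pex5l TPM in the first table. That share moved to 34.1% of counts. The cause was not tested. Size factors as in DESeq2, library totals and a prior count of 0.5 moved none of the 4 ratios beyond their intervals. Without replicate 1 or 2, levels and shares are those of the other animal, and no ratio can be had. Hcn4, at 101 and 104 counts, is the least precise of the 4.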
